A study of Homo sapiens with 4 samples.

Results

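The annexin genes *ANXA1*, *ANXA2*, *ANXA3*, *ANXA4*, *ANXA5*, *ANXA6*, *ANXA9*, *ANXA10*, *ANXA11* and *ANXA13* were analyzed on 4 expression arrays of drug-treated colon cancer cells. The probes were selected by the RefSeq accession in the array design, which mapped 12 probes to these 10 genes, of 25006 genes named in the same way. The family was chosen because *ANXA10* had fallen strongly with all drugs, so that the values of *ANXA10* against the mock array are a description and carry no support of their own.

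HML58-3 derives from the human colon cancer line HCT116 and carries a luciferase gene behind a marker promoter that is silenced by methylation. It was kept in culture with mock treatment or with 1 μM of decitabine (DAC), OR-2003 or OR-2100. DAC is a deoxycytidine analog that is built into DNA and traps DNA methyltransferase, and OR-2003 and OR-2100 are prodrugs that release DAC. The drug was given with fresh medium on day 1 and RNA was taken on day 5. Each condition was measured on 1 Agilent 1-color array, so no difference has a replicate check, no p-value is given, and all 3 comparisons share the same mock array. Fewer cells of a kind and less RNA per cell cannot be told apart in such samples.

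Levels are given as log2 intensity on a scale whose zero is the 75th percentile of an array's gene probes. A gene was called lower when it stood at -1 or more on the mock array and was at least 2-fold lower with the drug, and called higher when it stood at -1 or more with the drug and was at least 2-fold higher. Levels of different probes are not set against each other, apart from the sums over the marker lists. Of 58201 gene probes, 54.3% to 57.2% were well above background on an array, and none was saturated. The only repeat measurement was the spread between spots of 300 probes printed 10 times. The standard deviation (SD) of a difference between spots was 0.087 at levels of 1 or more, 0.12 from -1 to 1, 0.18 from -3 to -1 and 0.45 from -5 to -3, and it holds no difference between cultures.

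Annexins are proteins that bind acidic phospholipids of membranes when calcium rises, through a conserved core of annexin repeats. They take part in vesicle traffic, membrane repair and the linkage of membranes to the cytoskeleton, and several of them work in complexes with small calcium-binding S100 proteins. In the digestive tract, ANXA10 is known as a protein of the gastric epithelium and as a marker of serrated colorectal lesions.

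DAC and its prodrugs deplete the enzyme that maintains methylation at CG dinucleotides, so the promoters of the annexins whose levels differed most are shown first. The 250 bases before the RefSeq start site were read from the GRCh38.p14 assembly for *ANXA10* (chr4:168092287-168092536, plus strand), *ANXA9* (chr1:150982042-150982291, plus strand), *ANXA1* (chr9:73151615-73151864, plus strand) and, as the annexin with the most positive difference, *ANXA2* (chr15:60397987-60398236, minus strand). They are written 5′ to 3′ on the strand of the gene, and capitals mark CG dinucleotides.
ANXA10: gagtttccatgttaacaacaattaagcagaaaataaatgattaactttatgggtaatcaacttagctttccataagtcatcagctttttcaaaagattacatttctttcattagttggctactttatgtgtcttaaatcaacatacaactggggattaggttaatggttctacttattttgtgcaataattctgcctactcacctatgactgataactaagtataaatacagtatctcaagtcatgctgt
ANXA9: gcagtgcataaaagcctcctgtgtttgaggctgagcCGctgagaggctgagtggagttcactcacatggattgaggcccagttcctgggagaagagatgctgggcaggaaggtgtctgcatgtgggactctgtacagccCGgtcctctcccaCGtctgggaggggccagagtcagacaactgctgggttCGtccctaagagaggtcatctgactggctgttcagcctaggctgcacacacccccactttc
ANXA1: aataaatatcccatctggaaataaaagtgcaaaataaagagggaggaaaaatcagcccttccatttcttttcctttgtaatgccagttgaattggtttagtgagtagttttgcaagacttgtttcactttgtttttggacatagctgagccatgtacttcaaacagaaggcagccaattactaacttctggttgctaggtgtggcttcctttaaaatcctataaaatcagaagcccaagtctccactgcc
ANXA2: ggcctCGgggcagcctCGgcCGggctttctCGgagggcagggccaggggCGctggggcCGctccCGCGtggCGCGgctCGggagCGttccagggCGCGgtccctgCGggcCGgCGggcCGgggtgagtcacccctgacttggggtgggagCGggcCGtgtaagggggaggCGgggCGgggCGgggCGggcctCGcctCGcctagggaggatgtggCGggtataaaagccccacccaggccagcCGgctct

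The windows of *ANXA10* and *ANXA1* held no CG dinucleotide, that of *ANXA9* held 4 and that of *ANXA2* held 28. Over 35116 windows of the same length in the RefSeq table, the median was 11. A count of 0 was found in 6.06% of all windows, a count of 4 or fewer in 34.3% and a count of 28 or more in 15.9%. The GC content was 31.2% for *ANXA10*, 38.4% for *ANXA1*, 58% for *ANXA9* and 78% for *ANXA2*. The letters TATAAA, searched on both strands, lay on the printed strand 29 bases before the start of *ANXA10* and 31 bases before the starts of *ANXA1* and *ANXA2*, and were not found in the *ANXA9* window. They occurred in 10.7% of all windows on either strand and in 6.8% on the strand of the gene. A match of letters is a description of the window, and methylation was not measured on these arrays.

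*ANXA10*, whose product has lost most of the calcium-binding residues of the family, was measured by 1 probe. Its level was 0.67 on the mock array, -3.27 with DAC, -3.58 with OR-2003 and -3.93 with OR-2100. The probe stood clear of background on all 4 arrays, and every drug array lay far under the mock array. The log2 difference was -3.94 with DAC, -4.25 with OR-2003 and -4.60 with OR-2100, which is 15.4-fold, 19.0-fold and 24.3-fold lower. Before scaling, the background-corrected intensity was 242 on the mock array, with an error of 24.3 given by the scanner software. It was 18.3 with DAC (error 2.56), 13.9 with OR-2003 (error 2.21) and 11.5 with OR-2100 (error 2.0). Ordered from the most negative difference, *ANXA10* took place 5 of 13204 genes tested with DAC, place 4 of 13233 with OR-2003 and place 3 of 13259 with OR-2100. With normexp background correction, which was run with an added offset of 50 on median intensities, the differences were -2.13, -2.19 and -2.24, and the part of the offset was not tested apart from that of the correction.

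*ANXA9*, a member that lacks calcium-binding residues as well, was also lower on every drug array. Its level was -0.69 on the mock array, -2.60 with DAC, -2.92 with OR-2003 and -3.0 with OR-2100. The differences were -1.91, -2.23 and -2.31, or 3.75-fold, 4.69-fold and 4.96-fold lower. They were larger than the SD of a difference between spots at those levels. With normexp they were -0.86, -1.05 and -1.05, which is under 2-fold with DAC. *ANXA9* and *ANXA10* entered the count only through the mock array, where their level reached -1, so that a fall was built into how they entered it.

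*ANXA1*, an inhibitor of inflammation whose product signals through formyl peptide receptors, was the other annexin called lower. Its level was 7.40 on the mock array, 5.96 with DAC, 5.93 with OR-2003 and 5.67 with OR-2100. The differences were -1.44, -1.47 and -1.73, or 2.71-fold, 2.76-fold and 3.32-fold lower. This probe was bright on all 4 arrays, and over the 8 settings of scaling and background its difference stayed between -1.56 and -1.11 with DAC, between -1.69 and -1.15 with OR-2003 and between -1.82 and -1.33 with OR-2100.

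**Figure D1:**
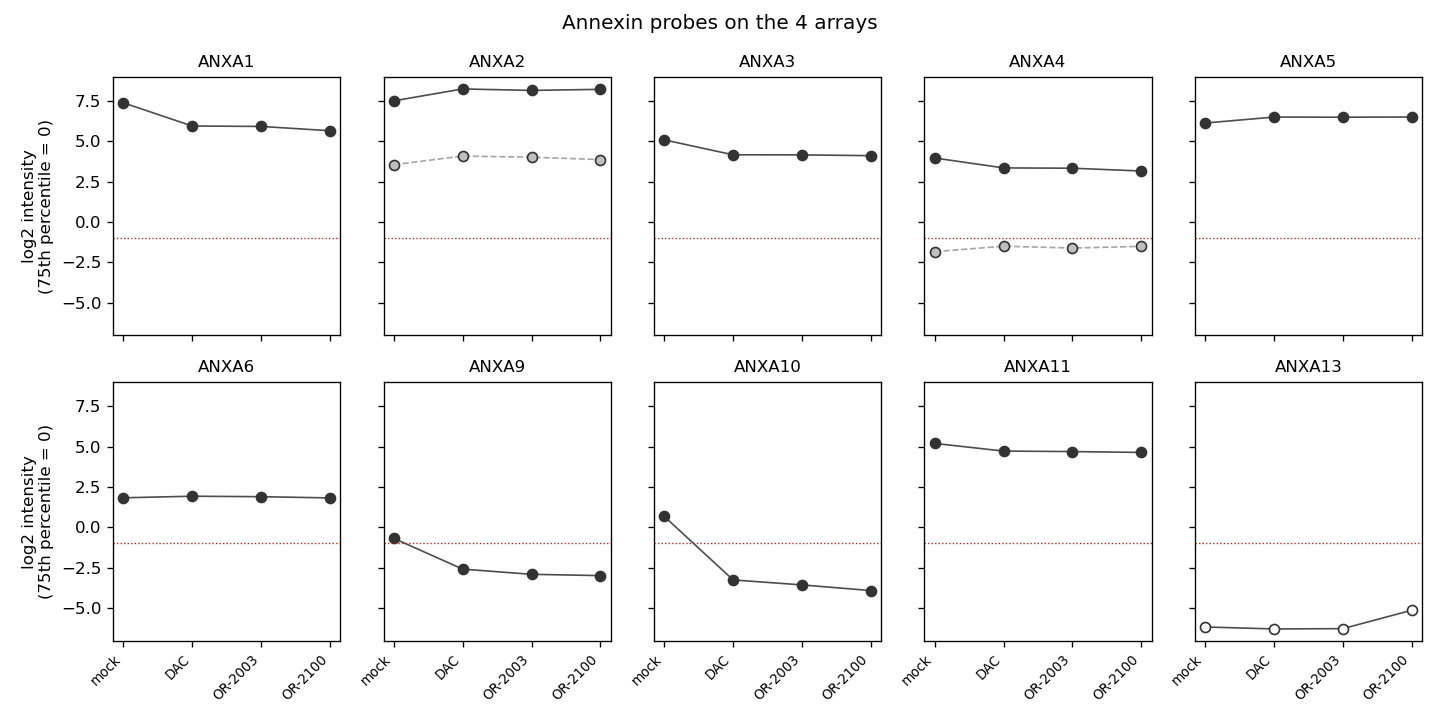
Log2 intensity (vertical axis, 75th percentile of gene probes at 0) of each annexin probe on the mock, DAC, OR-2003 and OR-2100 arrays, with 1 point per array. Black points are the probe used for a gene, grey dashed lines another probe of the gene, white points a signal not well above background, and the dotted red line the level of -1, under which *ANXA10* and *ANXA9* lay on all 3 drug arrays.

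Of the 10 annexins, 9 reached the level of -1 on an array. With DAC, 3 of them were called lower and 0 higher, against 11.3% of all genes tested called lower and 10.9% called higher. With OR-2003 the counts were again 3 and 0, against 11.4% and 11.1%, and with OR-2100 they were 3 and 0, against 12.9% and 11%. The same 3 genes, *ANXA1*, *ANXA9* and *ANXA10*, were lower with all 3 drugs, against 9.78% of 13336 genes, and no annexin was higher with all 3, against 9.89%. When the 75th percentile was taken over bright probes, those well above background on all arrays, 1 annexin was lower with each drug, *ANXA1*, since *ANXA9* and *ANXA10* no longer reached -1 on the mock array. With that scaling, 6.72% of all genes tested were called lower with DAC, 6.88% with OR-2003 and 7.53% with OR-2100. Because *ANXA10* was the reason for the choice of the family, its place in these counts is not a result. The median difference of the 9 genes was -0.62 with DAC, -0.63 with OR-2003 and -0.81 with OR-2100, and that of all genes tested was -0.17, -0.17 and -0.20. With each drug this annexin median was the value of the brighter probe of *ANXA4*, a gene whose other probe went the opposite way. With the mean of all probes of a gene it was -0.48, -0.51 and -0.56. *ANXA10*, chosen for its fall, is among the 9 genes, so the median does not show a fall of the family. Of the 9 annexins, 6 were under 0 with all 3 drugs and 2 were above 0, which is 66.7% and 22.2%, while of 15977 genes well above background on all arrays 56.4% were under 0 and 32.4% above.

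**Figure D2:**
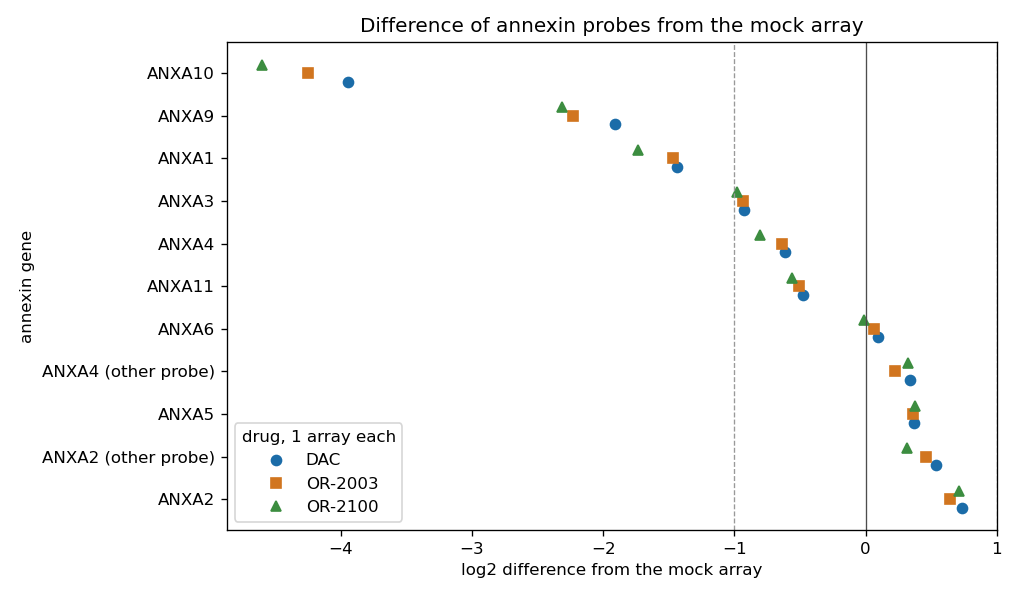
Log2 difference from the mock array (horizontal axis) of each annexin probe that was well above background, with 1 point for each of DAC, OR-2003 and OR-2100. The dashed line marks 2-fold lower, past which *ANXA10*, *ANXA9* and *ANXA1* lay with all 3 drugs, and *ANXA6* lay close to 0 on a side that changes with the scaling.

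*ANXA3*, *ANXA4* and *ANXA11* stood under the mock array by less than 2-fold. *ANXA3*, known from neutrophil granules and epithelia, had levels of 5.10 on the mock array and 4.17, 4.17 and 4.12 with the drugs, in the order DAC, OR-2003, OR-2100 that is kept from here on. Its differences of -0.93, -0.93 and -0.98 lay just short of 2-fold, and with scaling by the median they were -1.04, -1.15 and -1.07. *ANXA4*, a protein of secretory epithelia, had 2 probes that went opposite ways. The brighter probe read 3.97 on the mock array and 3.36, 3.34 and 3.16 with the drugs, with differences of -0.62, -0.63 and -0.81. The other probe, designed to another transcript accession, read -1.84 on the mock array and -1.50, -1.62 and -1.52 with the drugs, with differences of 0.34, 0.23 and 0.33. No direction is therefore given for *ANXA4*. *ANXA11*, which links RNA granules to lysosomes and binds S100A6, read 5.20 on the mock array and 4.73, 4.70 and 4.64 with the drugs, with differences of -0.47, -0.51 and -0.56.

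*ANXA2* and *ANXA5* stood above the mock array. *ANXA2*, which joins S100A10 in a complex at the plasma membrane that binds plasminogen activators, read 7.52 on the mock array and 8.26, 8.17 and 8.24 with the drugs. The differences were 0.74, 0.65 and 0.71, or 1.67-fold, 1.57-fold and 1.64-fold. Its other probe read 3.56 on the mock array and 4.09, 4.02 and 3.88 with the drugs, with differences of 0.54, 0.46 and 0.32. All drug arrays lay above the mock array with both probes. Quantile normalization placed *ANXA2* past 2-fold, at 1.13, 1.0 and 1.19. The pseudogenes *ANXA2P1* and *ANXA2P3* are near-identical to *ANXA2*, and their probes differed by 0.97, 0.90 and 0.94 and by 0.89, 0.78 and 0.87, so that the share of each gene in these signals is uncertain. *ANXA5*, the phosphatidylserine-binding protein used to stain apoptotic cells, read 6.14 on the mock array and 6.51, 6.50 and 6.52 with the drugs, with differences of 0.37, 0.36 and 0.38.

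*ANXA6*, a large annexin that links membranes to actin, was nearest to the mock array. It read 1.83 on the mock array and 1.93, 1.90 and 1.82 with the drugs, with differences of 0.10, 0.07 and -0.01 that were about as large as the SD between spots and changed sign with the scaling, with DAC and OR-2003 under median scaling and with OR-2100 under normexp, quantile normalization and the 75th percentile of bright probes. *ANXA13*, an annexin of intestinal and kidney epithelium, was not well above background on any array, and no fold is given for it.

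The scaling moved the differences of all genes together, so the annexins were also set against the median of all genes tested. Relative to it, *ANXA1*, *ANXA3*, *ANXA9*, *ANXA10* and *ANXA11* were lower and *ANXA2*, *ANXA5* and *ANXA6* were higher with each drug in all 8 settings of background, scaling, spots and probes. Subtracting the median removes a shift of a whole array, so rescaling could change these values little. Keeping marked spots and using the series table left every annexin at its main difference. No annexin probe had a marked spot and the series table repeats the same intensities, so these settings could not move them. Averaging probes moved only the differences of *ANXA2* and *ANXA4*. For the other annexins, mainly normexp and quantile normalization could thus have changed the direction. For *ANXA6* this relative difference was 0.27 with DAC, 0.24 with OR-2003 and 0.19 with OR-2100, for *ANXA5* it was 0.54, 0.53 and 0.58, and for *ANXA11* it was -0.31, -0.34 and -0.36. The relative difference of *ANXA4* was -0.45, -0.47 and -0.61, and the mean of both probes brought it to 0.027 with DAC.

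The 3 drugs were compared with each other at the matched dose and time, in 3 pairs, for the 9 annexins well above background on both arrays. No annexin differed 2-fold in any pair, while 0.0158% of genes tested did between OR-2003 and DAC, 0.0157% between OR-2100 and DAC and 0.00786% between OR-2100 and OR-2003. Those shares are of genes at -1 or more with a drug of the pair, which leaves out *ANXA9* and *ANXA10*, and over all genes well above background on both arrays they were 0.0843%, 0.141% and 0.288%. *ANXA10* differed by -0.31 between OR-2003 and DAC, by -0.66 between OR-2100 and DAC, which is 1.58-fold, and by -0.35 between OR-2100 and OR-2003. Only the second of these was larger than the SD of a difference between spots at that level, 0.45. A difference as low or lower was found for 3.10%, 0.741% and 5.34% of the genes well above background on both arrays of the pair. *ANXA9* differed by -0.32, -0.40 and -0.08 in the same order, and *ANXA1* by -0.03, -0.29 and -0.27. *ANXA4* differed by -0.02, -0.19 and -0.17 with its brighter probe.

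The other annexins stayed within 0.11 of each other on the 3 drug arrays. Between OR-2003 and DAC, all 9 annexins were lower with OR-2003, with a median of -0.030, whereas 49.2% of 17797 genes were lower. The differences of *ANXA1*, *ANXA3*, *ANXA4*, *ANXA5*, *ANXA6* and *ANXA11* were smaller than the SD of a difference between spots, 0.087. With normexp, *ANXA4* (-0.567 with DAC, -0.559 with OR-2003) and *ANXA6* (0.168 and 0.173) went the other way. The 9 genes were read on the same pair of arrays and are not repeats. Between OR-2100 and DAC, 8 were lower with OR-2100, with a median of -0.11, and 60.4% of 17675 genes were lower. Between OR-2100 and OR-2003, 7 were lower, with a median of -0.076, and 60.4% of 17737 genes were lower. With 1 array for each drug, no interval can be given for these differences, and they do not show that the drugs act alike or unlike on the family.

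The other annexin genes of the genome were *ANXA7*, *ANXA8* and *ANXA8L1*. *ANXA7*, the annexin that binds sorcin, read 4.89 on the mock array and 4.47, 4.43 and 4.32 with the drugs, with differences of -0.42, -0.46 and -0.57. Its other probe gave -0.58, -0.64 and -0.81. *ANXA8L1* was called higher with all 3 drugs, from -2.36 on the mock array to -0.63, -0.91 and -1.0, which is 3.33-fold, 2.74-fold and 2.58-fold. Its sequence is near-identical to that of *ANXA8*, which had no probe of its own accession, so the signal cannot be assigned to either, and the call was lost with quantile normalization and with the 75th percentile of bright probes.

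Among the S100 proteins, many of which bind annexins, 18 of the 19 listed genes were on the array and 10 reached the level of -1. With all 3 drugs 3 of them were lower and 3 were higher, against 9.78% and 9.89% of all genes tested, and the median difference was -0.22, -0.27 and -0.20. The count of higher genes was 6 with median scaling, and that of lower genes was 2 with quantile normalization and with the 75th percentile of bright probes. These settings also moved the shares of all genes tested, given here for single drugs. With median scaling, 14.1% to 14.9% were called higher. Called lower were 8.95% to 10% with quantile normalization and 6.72% to 7.53% with the percentile of bright probes. *S100A10*, the partner of ANXA2, read 6.21 on the mock array and 7.59, 7.54 and 7.32 with the drugs, or 2.60-fold, 2.51-fold and 2.16-fold higher. *S100A11*, the partner of ANXA1, differed by 0.71, 0.70 and 0.74, and *S100A6*, the partner of ANXA11, by -0.50, -0.48 and -0.57. The other genes called higher were *S100A3*, a protein of the hair cuticle, at 2.13, 2.15 and 2.08, and *S100P*, which is made in placenta and many carcinomas, at 1.85, 1.90 and 1.80. Those called lower were *S100A14*, a protein of epithelia, at -2.82, -3.01 and -2.89, *S100A4*, known for its part in cell motility, at -1.73, -1.84 and -1.83, and *S100A16* at -1.06, -1.08 and -1.08.

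Of 16 other annexin partners, 9 reached the level of -1, of which 2 were lower and 1 was higher with all 3 drugs. The shares of all genes tested were 9.78% lower and 9.89% higher. *PLAU*, which encodes the plasminogen activator urokinase, differed by -1.55, -1.69 and -1.46, and *SRI*, which encodes sorcin, by -1.34, -1.95 and -1.58. *ANXA2R*, a reported receptor of ANXA2, differed by 1.15, 1.24 and 1.29. With the 75th percentile of bright probes, the call of *ANXA2R* was lost and 1 partner was lower. With single drugs, that scaling called 6.72% to 7.53% of all genes tested lower and 9.84% to 10.1% higher. For the giant scaffold gene *AHNAK*, whose product binds the ANXA2 complex, the brightest probe gave -0.44, -0.59 and -0.50, whereas another of its 3 probes gave -2.71, -2.84 and -2.93. Among copines and ferlins, which like annexins bind membranes through calcium, 8 of 13 genes reached the level of -1. None of these was lower with all 3 drugs, against 9.78% of all genes tested, and 1 was higher, against 9.89%. This was *CPNE5*, at 1.70, 1.85 and 1.83, a call that was lost with the 75th percentile of bright probes. *CPNE3* was lower with OR-2003 and OR-2100, at -1.09 and -1.06, and its difference with DAC was -0.98.

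**Figure D3:**
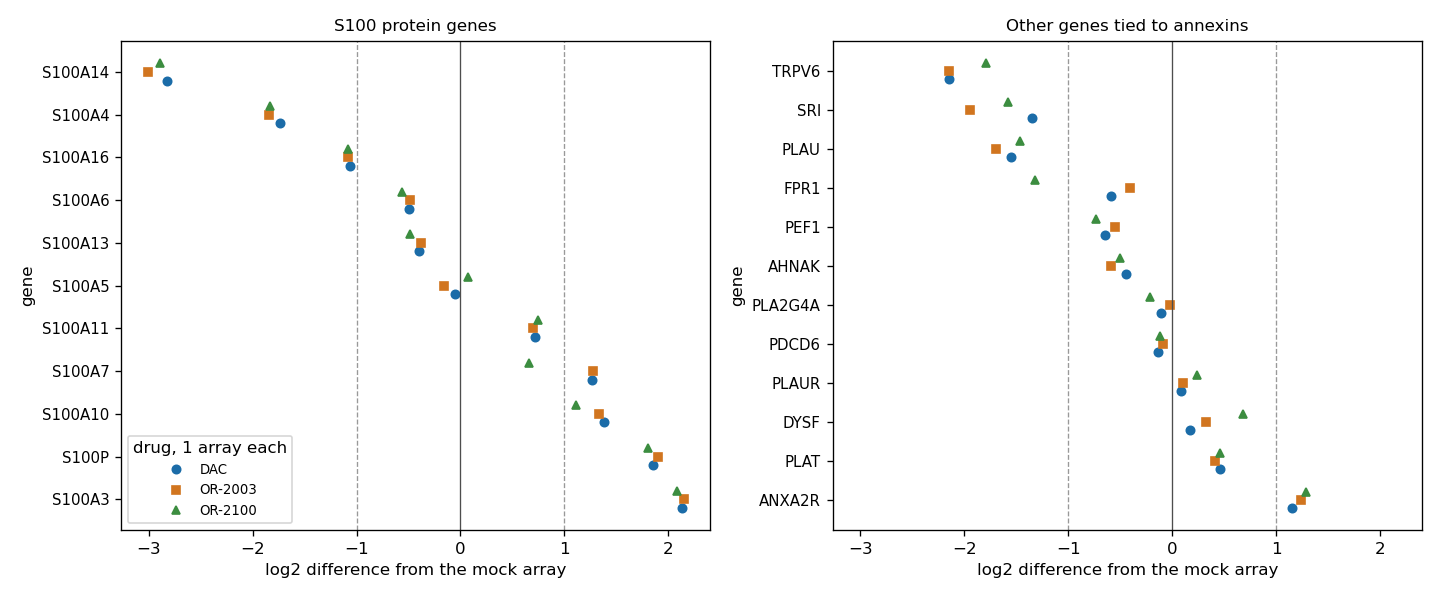
Log2 difference from the mock array (horizontal axis) of S100 genes (left) and of genes of other annexin partners (right) that were well above background on all 4 arrays, with 1 point per drug array and dashed lines at 2-fold. *S100A10*, *S100P*, *S100A3* and *ANXA2R* lay past 2-fold higher with all 3 drugs, *S100A14*, *S100A4*, *S100A16*, *SRI* and *PLAU* past 2-fold lower, and *TRPV6* also lay past it at a level under -1 on every array.

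The genes whose pattern was nearest to that of *ANXA10* were found by the Euclidean distance between the 4 array values of each gene, centered on its own mean, over 12106 genes at -1 or more on the mock array. The nearest was *DDIT4*, an inhibitor of mTOR signaling, at a distance of 0.43, with differences of -4.17, -4.16 and -4.23. *SLC7A11*, the cystine and glutamate exchanger, followed at 0.54, with -4.51, -4.55 and -4.48. *PRDM16*, a transcription factor, stood at 0.75, with -3.71, -3.37 and -3.80. Its other probe gave -0.38 with DAC and was not well above background with OR-2003 and OR-2100, where it was at least 1.86-fold and 2.40-fold lower. *PHGDH*, the first enzyme of serine synthesis, stood at 0.79, with -3.40, -3.52 and -3.50. *NIBAN1*, a stress-responsive gene, stood at 0.81, with -3.64, -3.47 and -3.57. With 4 arrays, this likeness mainly reflects the size of the difference from the mock array.

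The genes beside *ANXA10* on chromosome 4 did not share 1 direction. On 1 side, *SPOCK3*, which encodes an extracellular proteoglycan, read -1.67 on the mock array and was not well above background with any drug, so that it was at least 5.63-fold lower with DAC, 6.57-fold with OR-2003 and 6.35-fold with OR-2100. The next genes on that side, *TLL1* and *LOC101928131*, were not well above background on any array. On the other side, *DDX60*, an interferon-inducible helicase gene, was called higher by 2.30-fold, 2.19-fold and 2.60-fold. *DDX60L* differed by -0.07, -0.30 and -0.06, and the actin scaffold gene *PALLD* by -0.43, -0.47 and -0.43.

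Of the 10 annexins, 9 had a window in the RefSeq promoter table, and 6 had a single start. The other single-start genes were *ANXA3*, with 18 CG dinucleotides, and *ANXA5*, with 31. *ANXA4* had windows of 36 and 21, *ANXA6* of 19 and 10, and *ANXA11* of 9, 22 and 5. The annexins called lower thus had the windows with the fewest CG dinucleotides among the single-start annexins, a description over 6 genes of which *ANXA10* was chosen for its fall. Over all genes tested with a window, 12.8% of 914 genes with 4 or fewer CG dinucleotides were lower with all 3 drugs and 19.4% were higher. For 9537 genes with 5 or more, 9.55% were lower and 7.85% were higher.

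*ANXA10* is a gastric gene, so a list of gastric epithelium genes was read beside it. Of its 15 genes, 4 reached the level of -1. None of them was lower with all 3 drugs, against 9.78% of all genes tested, and 1 was higher, against 9.89%. This was *TFF2*, a trefoil peptide of gastric mucus. It went from -3.31 on the mock array to 2.37, 2.42 and 2.32, or 51.3-fold, 52.9-fold and 49.6-fold. All 8 epithelial markers stood at -1 or more on every array, with a summed level, relative to the 75th percentile, of 1347 on the mock array and 1695, 1625 and 1598 with the drugs. This sum is carried by the brightest probes, *KRT19* at 9.34 and *KRT18* at 8.78 on the mock array. It does not show that most of the markers rose. Of the 8 markers 5 were lower with all 3 drugs, against 9.78% of all genes tested. These were *ELF3* at -1.88, -2.04 and -2.06, *ESRP1* at -1.76, -2.0 and -1.78, and *CLDN7* at -1.26, -1.35 and -1.31. With them were *EPCAM*, a surface protein of epithelia, at -1.49, -1.52 and -1.46, and *CDH1*, which encodes E-cadherin, at -1.09, -1.18 and -1.25. The other 3, all keratin genes, stood above the mock array by less than 2-fold, *KRT8* by 0.59, 0.59 and 0.47, *KRT18* by 0.59, 0.52 and 0.46 and *KRT19* by 0.38, 0.31 and 0.32. The values of *KRT8* are those of its brightest probe, and only 2 of its 3 probes stood above the mock array with all 3 drugs. Of 10 markers of leukocytes, endothelium and fibroblasts, 4 reached the level of -1 and 3 were higher with all 3 drugs, against 9.89% of all genes tested. The summed level of the 10 markers, again carried by the brightest probes, was 3.33 on the mock array and 10.9 to 11.3 with the drugs. *COL3A1* was not well above background on any array, and the leukocyte gene *PTPRC* stood under -1 on all of them. The part of these markers in the annexin values was not tested.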

How the data were processed

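Gene expression was measured in HML58-3 cells on 4 Agilent 1-color arrays, 1 for each of mock, DAC, OR-2003 and OR-2100. The files deposited by the authors are scanner output, in which Feature Extraction 12.1.0.3 had subtracted the background from each spot's intensity without scaling arrays to each other. The series table repeats these intensities. After control spots had been removed, log2 values were averaged over the spots of a probe. Outlier spots were left out of this mean, except for a probe whose spots were all outliers. The values were then shifted so that an array's 75th percentile over gene probes was 0, after the methods of the study. A RefSeq table of GRCh38.p14 gave gene names for the accessions of 34892 probes, and coordinates are given only for the promoter windows of that table, since the array design is annotated on another build. For a gene with several probes, the probe with the highest mean was used and the others are given for annexins.

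The annexins, the gene lists and the rules were chosen with earlier results of these data known. Genes named are all annexins, up to 6 genes per list with the largest mean difference among those past 2-fold with all 3 drugs, the 5 nearest patterns, the 3 neighbors on each side of *ANXA10*, and a few partners and markers chosen after their values were seen. The listed S100, partner, copine and ferlin, gastric and cell type genes come from general knowledge. For a probe not well above background on 1 side, the bound uses the higher of the probe's own level and the lowest level of a probe well above background on that array.

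With 1 array per condition no test was run, and the number of arrays limits the precision. Alternatives were normexp with an offset of 50 on the median intensities, quantile normalization, a 75th percentile over bright probes only (well above background on all arrays), median scaling, marked spots kept, the series table, the mean of all probes of a gene, a 4-fold threshold and no minimum level. The counting was tested on simulated data with 4-fold changes in genes above a level of 1. This checks the code and does not cover genes near the calling level or the wider spread of dim probes. Python 3.11.15, numpy 2.4.6, pandas 2.3.3, matplotlib 3.10.9, R 4.3.3 and limma 3.58.1 were used.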

Additional observations from a re-analysis of the deposited data

How the results depend on the processing

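No paired analysis was possible because there was 1 array per condition, and for the same reason no replicate could be left out. Over the 8 settings of background, scaling, spots and probes, *ANXA1*, *ANXA3*, *ANXA4*, *ANXA9*, *ANXA10* and *ANXA11* stayed under 0 and *ANXA2* and *ANXA5* above 0 with each drug. Among these settings, the series table and the kept marked spots gave the main values for every annexin. *ANXA6* turned with each drug, to -0.021 with DAC and -0.16 with OR-2003 with median scaling, and with OR-2100 to 0.043 with normexp, 0.16 with quantile normalization and 0.21 when scaled by bright probes. *ANXA13*, not well above background, turned to -0.12 with OR-2100 with normexp, and to 0.074 with DAC and 0.097 with OR-2003 when scaled by bright probes. Normexp together with its offset of 50 brought *ANXA10* to -2.13, -2.19 and -2.24 in the order DAC, OR-2003, OR-2100. The median difference of the annexins was -0.28, -0.31 and -0.34 when scaled by bright probes, -0.48, -0.51 and -0.56 with the mean of probes, -0.73, -0.86 and -0.90 with median scaling and -0.45, -0.46 and -0.58 with quantile normalization. The median of all genes tested moved with the scaling, from 0.019, 0.020 and -0.0056 when scaled by bright probes to -0.26, -0.34 and -0.28 with median scaling. Annexins called lower numbered 1 with each drug with the percentile of bright probes, where *ANXA9* and *ANXA10* no longer reached -1 on the mock array, and 1 with DAC at 4-fold. Annexins called higher numbered 1 with each drug with quantile normalization. With the percentile of bright probes, other annexin genes, copines and ferlins, and other partners called higher numbered 0, other partners called lower 1, and leukocyte, endothelial and fibroblast markers called higher 1. With median scaling, S100 genes called higher numbered 6, copines and ferlins called lower 1, gastric genes called higher 2 and leukocyte, endothelial and fibroblast markers called higher 5. With quantile normalization, other annexin genes called higher numbered 0. The shares of all genes tested moved as well, given here for single drugs. With the percentile of bright probes, 6.72% to 7.53% were called lower and 9.84% to 10.1% higher. With median scaling these shares were 15.6% to 18% and 14.1% to 14.9%, and with quantile normalization 8.95% to 10% and 11.6% to 11.8%. At 4-fold no such share was computed. Dim probes, which include *ANXA9* and *ANXA10* with the drugs, carry the widest spread between spots.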

Other observations

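Probes of noncoding transcripts named for annexins were also on the array and enter no comparison above. *ANXA2R-AS1*, antisense to *ANXA2R*, had probes that differed by 1.33, 1.33 and 1.53 and by 0.24, 0.47 and 0.70 (in the order DAC, OR-2003, OR-2100), and *ANXA2R-OT1* had probes that differed by 1.13, 1.35 and 1.28 and by 0.68, 0.95 and 0.84. *ANXA2R* itself differed by 1.15, 1.24 and 1.29, and all of these probes stood clear of background on all 4 arrays.

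The intergenic transcript *lnc-ANXA1-1* had no signal well above background in mock-treated cells and read -2.32, -2.64 and -2.23 with the drugs, which is at least 3.92-fold, 3.13-fold and 4.16-fold higher. *lnc-ANXA9-1* was at least 1.52-fold, 1.49-fold and 1.17-fold higher in the same way. *lnc-ANXA1-2* stood clear of background in mock-treated cells alone and was at least 1.35-fold, 1.32-fold and 1.48-fold lower. *lnc-ANXA1-4* and *lnc-ANXA5-1* were not well above background on any array. *TRPV6*, a calcium channel that the ANXA2 complex carries to the membrane, stood under -1 on every array, and 1 of its 2 probes differed by -2.14, -2.15 and -1.79 and, for the other probe, by -2.40 and -2.18 with OR-2003 and OR-2100, whereas with DAC that probe was not well above background and was at least 7.75-fold lower.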
